A study of Mus musculus with 4 samples.

Results

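The B cell identity and receptor genes described here are 10 of the 32285 genes in the deposited count matrices. They were chosen by name, with earlier results of these data known. They are Cd79a and Cd79b, the signalling chains of the B cell receptor; the coreceptor and surface genes Cr2, Fcer2a and Cd52; and the transcription regulators Pax5, Ebf1, Pou2f2, Bcl11a and Lmo2. All 10 passed the filter on low counts in B cells of ascites, spleen and blood.

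The study measured single-cell RNA from viable CD45+ MHCI+ immune cells of B6 mice, all of which carried BeCon tumours; the labels do not describe BeCon further, and the series title names ovarian cancer. One arm received YKL-05-099, an inhibitor of the salt-inducible kinases, and the other the vehicle control. Ascites came from 4 vehicle mice and 4 treated mice, and spleen and blood from vehicle mice 1, 2 and 3 and treated mice 2, 3 and 4. Dose, duration, sex and age are not given in the sources used here, and there was no tumour-free group. Each mouse and tissue carried its own hashtag antibody, with ascites in 1 library of 134034611 unique molecular identifiers (UMIs, counted transcripts) and spleen and blood in another of 92064806. The same 52 cell barcodes occurred in both libraries, and 37.9% and 33.7% of the kept barcodes were called hashtag doublets and left out. A single hashtag could be assigned to 4368 ascites cells, 3528 spleen cells and 2154 blood cells. Clusters named B cell from marker genes held 698 vehicle and 325 treated cells of ascites, 474 and 946 of spleen, and 582 and 543 of blood, and all 10 fixed B cell markers were detected in the B cells of each mouse. Ascites gave 116 to 326 B cells per vehicle mouse and 36 to 135 per treated mouse, spleen 145 to 170 and 282 to 372, and blood 160 to 229 and 155 to 218. The mouse was the replicate throughout, and equal numbers in spleen and blood were taken as the same animal.

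A B cell senses antigen with a membrane immunoglobulin that has no signalling tail of its own and relies on the CD79A and CD79B chains to recruit kinases such as SYK. Early B cells are committed to the lineage by EBF1 and PAX5, which keep the genes of the receptor active. POU2F2 (Oct-2) binds the octamer element of immunoglobulin promoters and is needed for mature B cell responses. BCL11A is a zinc finger repressor required for B cell development. LMO2 is an adapter without DNA binding of its own that bridges other transcription factors. CR2 (CD21) binds complement fragments, FCER2A (CD23) is the low-affinity receptor for IgE and marks follicular B cells, and CD52 is a short lipid-anchored glycoprotein of the lymphocyte surface. The salt-inducible kinases keep the CRTC coactivators of CREB in the cytoplasm.

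Promoter windows are shown for Pou2f2 and Bcl11a, because both genes were lower in treated B cells of all 3 tissues. Lmo2 was lower in all 3 as well, but the reference used held no window for it. They come from RefSeq on GRCm38.p6 and run from 250 bases before an annotated start to 50 after it, with the bases from the start on in capitals. The Pou2f2 window is chr7:25132411-25132710 on the minus strand, and the Bcl11a window is chr11:24080445-24080744 on the plus strand.
Pou2f2: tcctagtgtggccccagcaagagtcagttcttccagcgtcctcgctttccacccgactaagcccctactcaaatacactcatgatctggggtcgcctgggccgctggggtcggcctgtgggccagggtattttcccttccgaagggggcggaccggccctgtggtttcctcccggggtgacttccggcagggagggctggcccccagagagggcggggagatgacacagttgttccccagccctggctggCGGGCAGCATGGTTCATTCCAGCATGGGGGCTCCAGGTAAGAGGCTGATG
Bcl11a: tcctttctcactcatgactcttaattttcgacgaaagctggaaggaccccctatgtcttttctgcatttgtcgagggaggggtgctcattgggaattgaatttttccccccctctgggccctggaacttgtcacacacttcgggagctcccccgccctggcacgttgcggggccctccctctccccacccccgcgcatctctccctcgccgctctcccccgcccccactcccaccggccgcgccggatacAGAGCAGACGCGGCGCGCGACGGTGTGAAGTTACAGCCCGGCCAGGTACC
The windows had 64% and 63% G and C bases, against a median of 52.7% over 32851 promoters. Of the 10 members 7 had at least 1 window in the table, 10 windows together. Both strands were searched for the cAMP response element TGACGTCA, the octamer ATGCAAAT and the EBF1 palindrome, and each was found in 0 of the 10 windows. They were present in 1.79%, 1.74% and 0.904% of all promoters. In the mm10 annotation Pou2f2 is the gene at chr7:25087344-25179726 (minus strand), Bcl11a at chr11:24078056-24174123 (plus) and Lmo2 at chr2:103957986-103981878 (plus). Both windows shown thus lie inside the gene and not at its outermost annotated start. The absence of a motif there covers no other start of these genes.

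The comparison of the arms asked how the kinase inhibitor changed these genes in B cells. Pou2f2, Bcl11a and Lmo2 were lower in treated mice in ascites, spleen and blood, with no overlap between the arms in any of these 9 comparisons. Cd79a, Cd79b, Pax5 and Ebf1 did not pass the test in any tissue. Fcer2a rose in ascites and spleen, Cr2 rose in spleen, and Cd52 fell in ascites and blood. Counts were summed per mouse over its B cells and tested with the edgeR quasi-likelihood test, and p-values were Benjamini-Hochberg adjusted over all genes tested, at a threshold of 0.05. In ascites 1 member rose and 4 fell, where 3.41% of 5601 genes rose and 4.36% fell. In spleen 2 members rose and 3 fell, against 2.44% and 2.18% of 7976 genes. In blood 0 members rose and 4 fell, against 0.628% and 0.351% of 6846 genes. Arms did not overlap, with treated below vehicle, for 6.84% of genes in ascites, 9.68% in spleen and 6.49% in blood. The median log2 fold change of the 10 members was -0.21 in ascites, 0.01 in spleen and -0.15 in blood, and that of all genes was 0.00, -0.00 and 0.01. Of 5350 genes tested in all 3 tissues, 7 fell in each of them (0.131%), and 3 of these 7 are Pou2f2, Bcl11a and Lmo2. Because the members were chosen with earlier results of these data known, their counts beside these shares are a description and not a test.

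**Figure D1:**
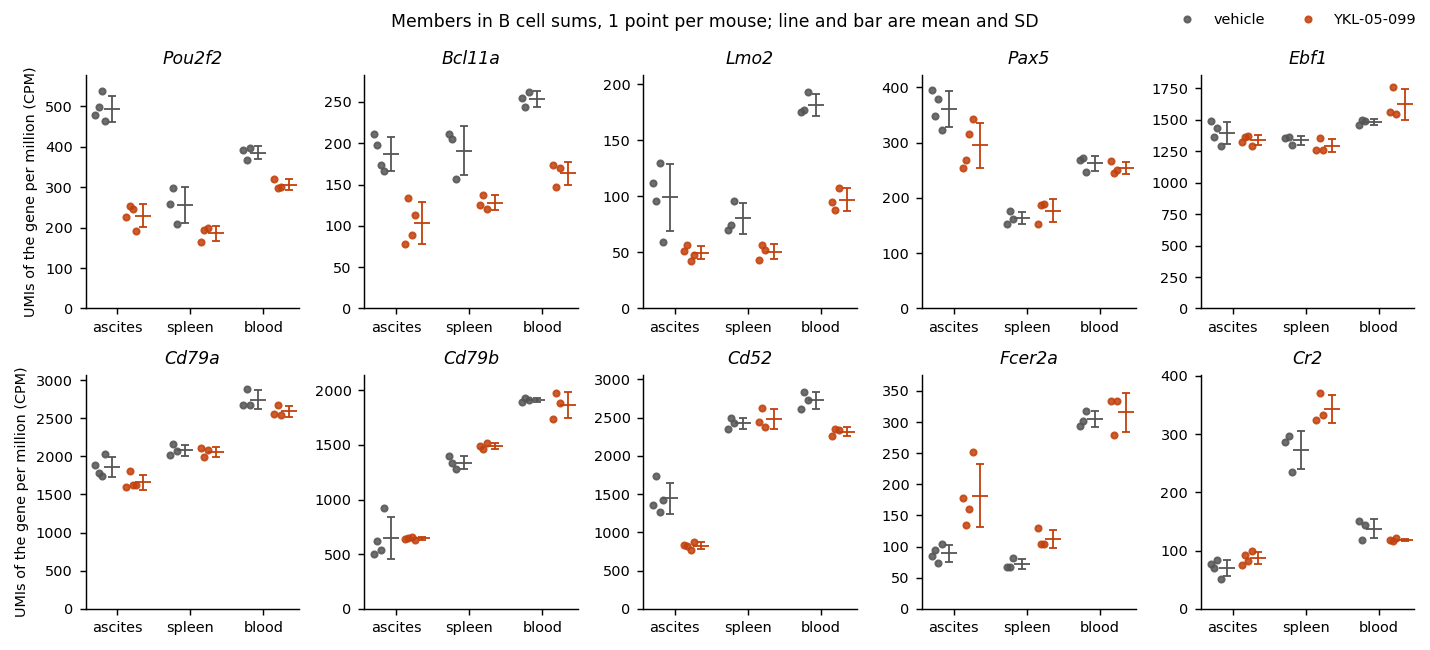
Level of each of the 10 members in the summed B cells of each mouse, in CPM (vertical axis, linear from 0), by tissue; grey points are vehicle mice, orange points YKL-05-099 mice, with mean and SD beside them. Pou2f2, Bcl11a and Lmo2 sit lower in the treated mice of ascites, spleen and blood, with no overlap between arms.

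Levels from a fit are in CPM, UMIs of the gene per 1000000 UMIs of the genes that passed the low-count filter, scaled between mice (TMM). The scale thus belongs to each fit, and CPM of different fits or subsets are not directly comparable. Pou2f2 levels in ascites were 479, 499, 538 and 464 CPM in vehicle mice 1 to 4 and 226, 254, 246 and 191 in treated mice 1 to 4. The highest treated mouse thus lay far below the lowest vehicle mouse, and the log2 fold change was -1.14 ± 0.12 (SE, n = 4 each, edgeR adjusted p = 6.2e-10), 0.455 times the vehicle level. In spleen the levels were 259, 299 and 210.2 CPM in vehicle mice and 164, 194 and 199 in treated mice, so the gap between the arms was narrow. The log2 fold change was -0.47 ± 0.10 (n = 3 each, edgeR adjusted p = 0.0016). In blood they were 391, 367 and 397 CPM against 322, 299 and 299.9, a log2 fold change of -0.33 ± 0.08 (edgeR adjusted p = 0.0077). The fall was larger in ascites than in spleen by 0.71 and than in blood by 0.82 on the log2 scale, tested as interaction terms (edgeR adjusted p = 0.0041 and 8.0e-05, with 2.81% and 2.53% of genes called). For every gene, interaction tests with ascites took its sums as independent of those of spleen and blood. The test of blood against spleen used the mouse as a block. Between blood and spleen the difference of the effects was 0.13 ± 0.13 (edgeR adjusted p = 0.83). The spleen call was lost without vehicle mouse 2 (-0.35), and the blood call without vehicle mouse 3 (-0.31), without treated mouse 4 (-0.32) or with the mouse number as a replicate block (-0.30).

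Bcl11a fell in each of the 3 tissues. Vehicle ascites held 211, 198, 174 and 166 CPM and treated ascites 78.4, 134, 88.7 and 113, a log2 fold change of -0.88 ± 0.16 (SE, n = 4 each, edgeR adjusted p = 0.00015). Vehicle spleens had 212, 205 and 157 CPM and treated spleens 126, 138 and 121 (-0.59 ± 0.10, n = 3 each, edgeR adjusted p = 6.6e-05). Blood had 255, 244 and 263 CPM in vehicle mice and 174, 147 and 169.8 in treated mice (-0.63 ± 0.10, edgeR adjusted p = 3.1e-07). In all 3 tissues the highest treated mouse lay below the lowest vehicle mouse. Differences of the effect between tissues were at most 0.33 ± 0.20 in size and did not pass the test (edgeR adjusted p from 0.51 to 0.95).

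Lmo2 was the least abundant of the 3 regulators in UMIs, and its ascites values rest on 8 to 25 UMIs per treated mouse and 52 to 95 per vehicle mouse. Its CPM was 112, 96.0, 129 and 59.1 in vehicle ascites and 51.2, 56.6, 42.7 and 47.8 in treated ascites, so vehicle mouse 4 lay just above the treated mice. The log2 fold change was -0.93 ± 0.24 (SE, n = 4 each, edgeR adjusted p = 0.0081), and without treated mouse 4 it was -0.92 and no longer passed. In spleen the levels were 70.2, 74.9 and 96.4 CPM against 43.2, 56.9 and 52.4 (-0.66 ± 0.14, n = 3 each, edgeR adjusted p = 0.00091). The separation was widest in blood, where vehicle mice had 175, 177 and 193 CPM and treated mice 95.1, 87.6 and 108. There the fold change was -0.90 ± 0.11 (edgeR adjusted p = 3.0e-10), 0.537 times the vehicle level. The 3 differences between tissues did not pass the test (edgeR adjusted p from 0.75 to 0.99).

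Among the lineage factors, Ebf1 differed little between the arms. Its levels were 1288 to 1489.7 CPM in vehicle ascites and 1292 to 1373 in treated ascites (log2 fold change -0.06 ± 0.07), 1297 to 1363 and 1263 to 1357 in spleen (-0.05 ± 0.06), and 1458 to 1500.1 and 1544 to 1762 in blood (0.12 ± 0.05). In blood its arms did not overlap, as for 7.33% of genes with treated above vehicle, and the edgeR adjusted p was 0.32. Pax5 had 394, 347, 378 and 322 CPM in vehicle ascites and 253, 269, 315 and 342 in treated ascites (-0.26 ± 0.12, n = 4 each, edgeR adjusted p = 0.23). In cluster 0 of ascites alone, examined as a later addition, Pax5 was lower (-0.44 ± 0.11, edgeR adjusted p = 0.0076). Pax5 in spleen and blood had log2 fold changes of 0.10 ± 0.10 and -0.04 ± 0.09.

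The receptor chains did not pass the test in any tissue. Cd79a stood at 1882, 1786, 1742 and 2037 CPM in vehicle ascites and 1595, 1803, 1622 and 1621 in treated ascites, with the arms overlapping through treated mouse 2 (log2 fold change -0.17 ± 0.07, edgeR adjusted p = 0.14). In spleen and blood its changes were -0.02 ± 0.05 and -0.08 ± 0.04. Cd79b was spread widely among vehicle ascites, at 501, 621, 540.1 and 926 CPM, against 629 to 660.1 in treated mice (-0.03 ± 0.19). Vehicle mouse 4 held the high value, and without it the sign turned (0.21). In spleen Cd79b was 1396, 1336 and 1281 CPM in vehicle mice and 1490.1, 1464 and 1516 in treated mice, which did not overlap, as for 10.7% of genes with treated above vehicle (0.16 ± 0.06, edgeR adjusted p = 0.11). A p that misses the threshold does not show that these levels were equal.

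**Figure D2:**
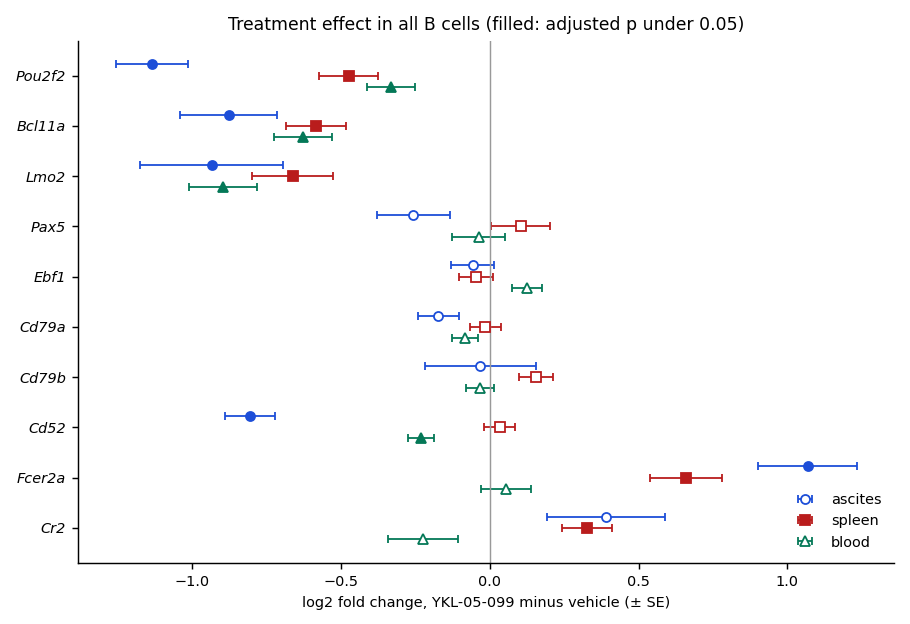
Log2 fold change of each member in all B cells, YKL-05-099 minus vehicle (horizontal axis, with SE), for ascites (circles), spleen (squares) and blood (triangles); filled symbols passed the edgeR test at an adjusted p of 0.05. Pou2f2, Bcl11a and Lmo2 are filled and below 0 in all 3 tissues, whereas Cd52 and Fcer2a are filled in 2 tissues each.

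Of the surface genes, Cd52 had effects that differed between the tissues. Ascites had 1360, 1736, 1262 and 1424 CPM in vehicle mice and 838, 827, 765 and 869.9 in treated mice, with a wide gap between them. The log2 fold change was -0.81 ± 0.09 (SE, n = 4 each, edgeR adjusted p = 6.2e-10). Spleen had 2356, 2493 and 2424 CPM against 2438, 2627 and 2381, with overlapping arms (0.03 ± 0.05, edgeR adjusted p = 0.82). Blood had 2615, 2839 and 2726 CPM against 2255, 2358 and 2343 (-0.23 ± 0.04, n = 3 each, edgeR adjusted p = 5.9e-05). Interaction terms passed for all 3 pairs of tissues, at -0.87 for ascites minus spleen, -0.59 for ascites minus blood and -0.26 for blood minus spleen (edgeR adjusted p = 2.3e-08, 3.1e-05 and 0.0083, with 0.696% of genes called in the last).

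Fcer2a went the other way in ascites and spleen. Its levels were 84.7, 94.2, 72.8 and 104 CPM in vehicle ascites and 178, 134, 161 and 252 in treated ascites, and the lowest treated mouse exceeded the highest vehicle mouse (1.07 ± 0.17, SE, n = 4 each, edgeR adjusted p = 7.2e-06). Spleen had 67.8, 67.4 and 80.8 CPM against 129.6, 104 and 103 (0.66 ± 0.12, n = 3 each, edgeR adjusted p = 0.00022). Blood B cells had 294, 302 and 318 CPM in vehicle mice and 335, 279 and 333 in treated mice (0.06 ± 0.08, edgeR adjusted p = 0.92). The blood effect was smaller than that of spleen by 0.59 and that of ascites by 1.01 (edgeR adjusted p = 0.030 and 0.00011). Cr2 was higher in treated spleens, at 325, 370.3 and 333 CPM against 286, 296 and 235 in vehicle spleens (0.33 ± 0.08, edgeR adjusted p = 0.013). It lost its call there without vehicle mouse 3 (0.23) or treated mouse 3 (0.27). In ascites and blood its changes were 0.39 ± 0.20 and -0.23 ± 0.12, neither past the test.

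The makeup of the B cells differed between the arms in ascites and spleen, which bears on all sums over B cells. In ascites, cluster 13, led by Jchain, Igkc and Ighm, held 7.76% to 18.7% of the B cells of vehicle mice and 0% to 2.70% of those of treated mice. B cells with a Bhlhe41 UMI and none of Cd93 made up 11.2% to 18.1% and 4.44% to 7.50% there; Bhlhe41 is a regulator that marks B-1 cells. B cells with an Fcer2a UMI and none of Cd93 or Bhlhe41 made up 15.2% to 24.2% of vehicle and 25% to 37.8% of treated B cells in ascites, and 23.5% to 31.7% and 31.9% to 40.6% in spleen. This gate is chosen by a member that rose in both tissues, so its share and the level of Fcer2a are not separate measurements. In spleen, cluster 1, led by Fcrl5 and Cr2, held 42.1% to 50.3% of vehicle and 53.5% to 59.9% of treated B cells, and cluster 0, with Fcer2a among its leading genes although the members were left out of the clustering, 23.5% to 28.3% and 14% to 16.3%. The shares of blood clusters 0 and 3 overlapped between the arms. The part of these shifts in the values over all B cells was not tested beyond the gates and clusters given further on. B cells were also a smaller part of all kept cells in treated ascites (12.5% to 20%, against 21.2% to 37.3%) and a larger part in treated spleen (42.6% to 55.8%, against 28.2% to 31.7%).

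**Figure D3:**
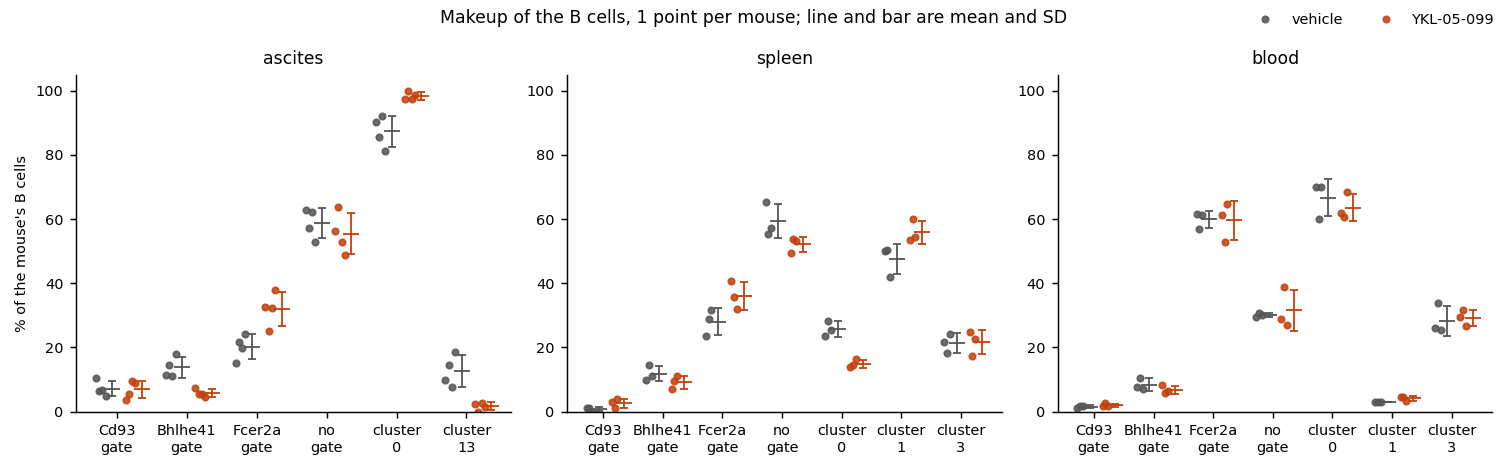
Percent of each mouse's B cells (vertical axis) with a UMI of Cd93, of Bhlhe41, of Fcer2a or of none of them, taken in that order, and percent in the larger clusters, for vehicle (grey) and YKL-05-099 (orange) mice with mean and SD. Cluster 13 of ascites reaches at most 2.70% in treated mice, while the blood shares of the Fcer2a gate and clusters 0 and 3 overlap between the arms.

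In vehicle mice alone, the members varied among these subsets, shown as a description without a test and as CPM of each gate's own total. In ascites, Pou2f2 was 571 ± 78.6 CPM in cells with a Bhlhe41 UMI and 465 ± 94.1 in cells with an Fcer2a UMI (mean ± SD, n = 4 mice, 13 to 59 and 20 to 79 cells each). Ebf1 was lower with Bhlhe41, at 880 ± 217 against 1565 ± 148 CPM, as was Pax5, at 207 ± 23.5 against 416 ± 33.8. Bcl11a followed the same order, at 110 ± 42.8 and 218 ± 50.9 CPM, and Cd52 the opposite one, at 1778 ± 335 and 1116 ± 84.3. Cr2 was 23.3 ± 30.6 CPM with Bhlhe41 and 125 ± 48.0 with Fcer2a. Cells with Bhlhe41 thus had lower CPM of Ebf1, Pax5 and Bcl11a and higher CPM of Cd52, and they made up a smaller share of the B cells in treated ascites. They were fewer but held more UMIs in all 4 vehicle mice. In vehicle mouse 4, 59 such cells held 579086 UMIs, and 79 cells of the Fcer2a gate 347030. A lower CPM is therefore not always a lower count per cell. In the same mouse and gates, Ebf1 had 443 and 514 UMIs, more per cell with Bhlhe41. Cr2 had 5 and 25 UMIs, fewer per cell with Bhlhe41.

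Within the gates, where mice with at least 20 cells were tested, Bcl11a was lower in treated cells of both testable gates of each tissue. CPM given for these tests are on the scale of each fit and not of the gate's own total. Among the gates tested, the largest fall of a member was that of Pou2f2 in ascites cells with an Fcer2a UMI, at 551, 708, 631 and 442 CPM in vehicle mice and 222, 193 and 169 in the 3 treated mice with enough cells. This was a log2 fold change of -1.55 ± 0.22 (edgeR adjusted p = 3.2e-05, where 2.04% of 1714 genes fell). In ascites cells with none of the 3 transcripts Pou2f2 fell by 0.68 ± 0.15 (edgeR adjusted p = 0.00075, 2.76% of 3581 genes fell). In spleen it fell by 0.52 ± 0.15 and 0.53 ± 0.11 in these gates (edgeR adjusted p = 0.025 and 0.00023, where 1.31% and 2.0% of genes fell). In blood it was at -0.30 ± 0.11 and -0.47 ± 0.14 and did not pass (edgeR adjusted p = 0.32 and 0.15, where 0.243% and 0.156% of genes fell).

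Bcl11a had log2 fold changes of -1.05 ± 0.26 and -0.85 ± 0.22 in the Fcer2a gate and the cells with no gate of ascites, -0.77 ± 0.16 and -0.52 ± 0.12 in spleen, and -0.58 ± 0.12 and -0.90 ± 0.19 in blood (edgeR adjusted p from 0.0005 to 0.016), with overlapping arms in the ascites cells with no gate. Lmo2 fell in the cells with no gate of ascites (-1.26 ± 0.32), spleen (-0.79 ± 0.18) and blood (-1.17 ± 0.23) and in the Fcer2a gate of blood (-0.85 ± 0.14), with edgeR adjusted p from 2.5e-05 to 0.0062. In the Fcer2a gate of ascites and spleen it stood at -0.99 ± 0.37 and -0.54 ± 0.21 and did not pass (edgeR adjusted p = 0.14 and 0.18). Cd52 fell in ascites cells with no gate, at 1335, 1786, 1215 and 1094 CPM in vehicle mice and 717, 776, 629 and 833 in treated mice (-0.86 ± 0.12, edgeR adjusted p = 3.2e-06). In the Fcer2a gate of ascites its change was -0.28 ± 0.12 (edgeR adjusted p = 0.23), and in that of blood it fell by 0.25 ± 0.06 (edgeR adjusted p = 0.011). Cr2 rose in spleen cells with no gate (0.36 ± 0.10, edgeR adjusted p = 0.0098, where 2.13% of genes rose). Pax5 was at -0.62 ± 0.19 in the Fcer2a gate of ascites and -0.16 ± 0.15 in its cells with no gate. Neither passed (edgeR adjusted p = 0.060 and 0.69). Fcer2a chose its own gate and is absent from the cells with no gate, so it was not tested there. Cells with a Bhlhe41 UMI could be compared in spleen and blood with at least 10 cells per mouse, and no member passed; there Pou2f2 was at -0.33 ± 0.23 and -0.48 ± 0.24 (edgeR adjusted p = 0.78 and 0.83). By edgeR 9 of 2388 genes (0.377%) passed in that spleen comparison and 0 of 1356 (0.00%) in blood.

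Clusters taken singly, also added after the data were seen, gave the same direction for Pou2f2, Bcl11a and Lmo2 in each of the 6 clusters tested. In ascites cluster 0 they were at -0.91 ± 0.13, -1.02 ± 0.16 and -1.0 ± 0.22 (edgeR adjusted p = 1.6e-07, 1.8e-06 and 0.00098, where 3.45% of genes fell). In spleen cluster 1 they were at -0.56 ± 0.11, -0.58 ± 0.12 and -0.69 ± 0.18 (edgeR adjusted p = 0.00023, 0.00044 and 0.011, where 1.66% fell), although the arms overlapped. In the other 4 clusters some calls were missed. Pou2f2 did not pass in spleen clusters 0 (-0.27 ± 0.18) and 3 (-0.41 ± 0.19) or in blood cluster 0 (-0.27 ± 0.10), with edgeR adjusted p from 0.29 to 0.65. Bcl11a did not pass in spleen cluster 3 (-0.38 ± 0.21) or blood cluster 3 (-0.58 ± 0.18), with edgeR adjusted p = 0.42 and 0.17. Lmo2 did not pass in spleen clusters 0 (-0.85 ± 0.28) and 3 (-0.65 ± 0.27) or in blood cluster 3 (-0.70 ± 0.21), with edgeR adjusted p from 0.15 to 0.24. Fcer2a rose in spleen clusters 0 (0.81 ± 0.20) and 3 (1.13 ± 0.23) and in ascites cluster 0 (0.72 ± 0.18), with edgeR adjusted p from 9.9e-05 to 0.021, but did not pass in spleen cluster 1 (0.42 ± 0.19); its arms overlapped in ascites cluster 0. In spleen clusters 0 and 3 and ascites cluster 0, 0.584%, 1.78% and 2.77% of genes rose. Cr2 did not pass in a single spleen cluster, at 0.19 ± 0.09 to 0.42 ± 0.19. Cd52 fell in ascites cluster 0 (-0.58 ± 0.09, edgeR adjusted p = 1.7e-05), beside -0.81 in all ascites B cells.

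**Figure D4:**
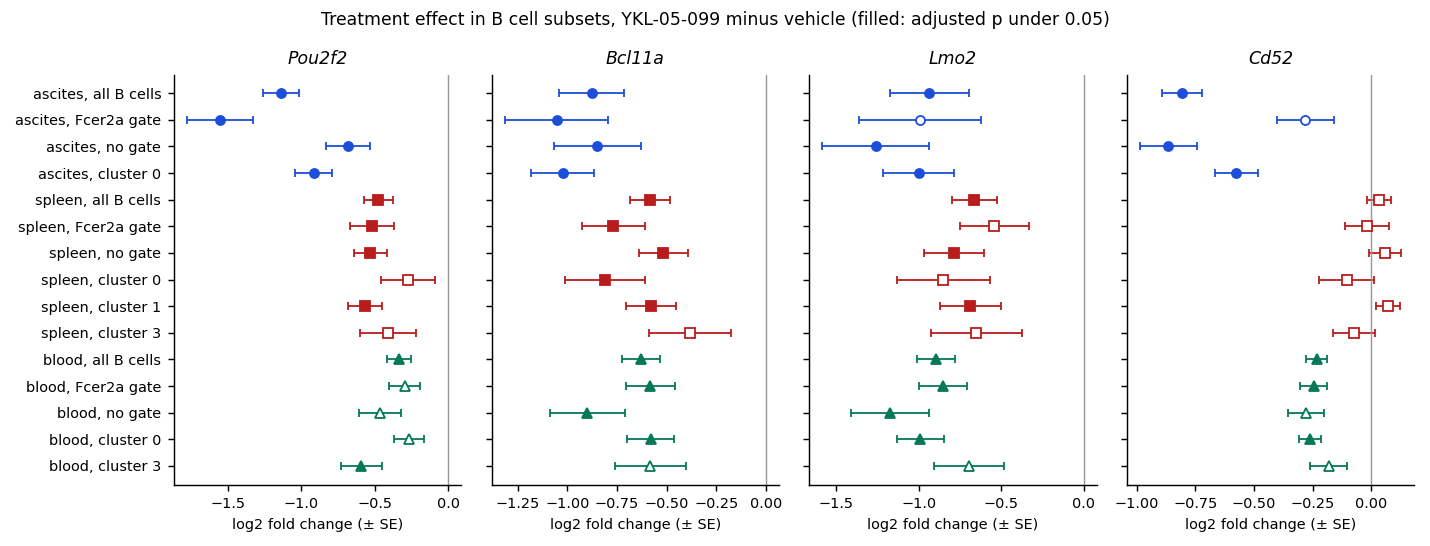
Log2 fold change (horizontal axis, with SE) of Pou2f2, Bcl11a, Lmo2 and Cd52 in all B cells, in cells with an Fcer2a UMI, in cells with no gate transcript and in single clusters of each tissue (rows); filled symbols passed the edgeR test. Symbols of Pou2f2, Bcl11a and Lmo2 lie below 0 in each row, while Cd52 in spleen lies around 0.

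In vehicle mice, spleen and blood B cells of the same library and animals could be compared, with CPM normalised over these 6 sums. Fcer2a was lower in spleen, at 79.8 ± 8.34 against 287 ± 12.4 CPM (log2 difference -1.85 ± 0.12), and Cr2 higher, at 302 ± 37.0 against 129 ± 15.4 CPM (1.21 ± 0.11; n = 3 mice, mouse as a block). Lmo2 was at 89.3 ± 15.3 CPM in spleen and 171 ± 9.88 in blood (-0.94 ± 0.12). Pax5 (-0.45 ± 0.10), Pou2f2 (-0.36 ± 0.09), Cd79b (-0.28 ± 0.05) and Cd79a (-0.16 ± 0.05) were also lower in spleen, and edgeR adjusted p of these 7 genes ran from 1.8e-33 to 0.0066. Cd52, Ebf1 and Bcl11a did not pass. Of 7218 genes 19.8% passed, and 7 of the 10 members did. The members were chosen with earlier results of these data known, so these shares are a description and not a test.

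Outside B cells, Cd52, Pou2f2, Bcl11a and Lmo2 were also measured in other ascites classes. Bcl11a in cDC1, a dendritic cell class that presents antigen to CD8 T cells, was 47.3, 57.1, 48.5 and 26.3 CPM in vehicle mice and 12.2, 6.71, 9.01 and 18.2 in treated mice. Its log2 fold change of -1.87 ± 0.29 passed the test (n = 4 each, edgeR adjusted p = 8.5e-06), where 7.95% of 5800 genes fell. Lmo2 in macrophages fell, at 57.7, 52.4, 54.2 and 49.3 CPM in vehicle mice and 33.0, 28.9, 29.0 and 39.0 in treated mice (-0.70 ± 0.17, edgeR adjusted p = 0.0079, where 8.78% of 7495 genes fell). Cd52 rose in macrophages (0.36 ± 0.12, edgeR adjusted p = 0.047, where 7.39% of genes rose) and in classical monocytes (0.38 ± 0.10, edgeR adjusted p = 0.027, where 2.33% rose), the opposite of its direction in ascites B cells. In T cells no tested member passed in any tissue, and Cd52 there was at -0.08 ± 0.15 in ascites, -0.00 ± 0.06 in spleen and 0.05 ± 0.08 in blood. By edgeR 48, 161 and 6 genes passed in these T cells, or 1.11%, 2.18% and 0.157%.

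**Figure D5:**
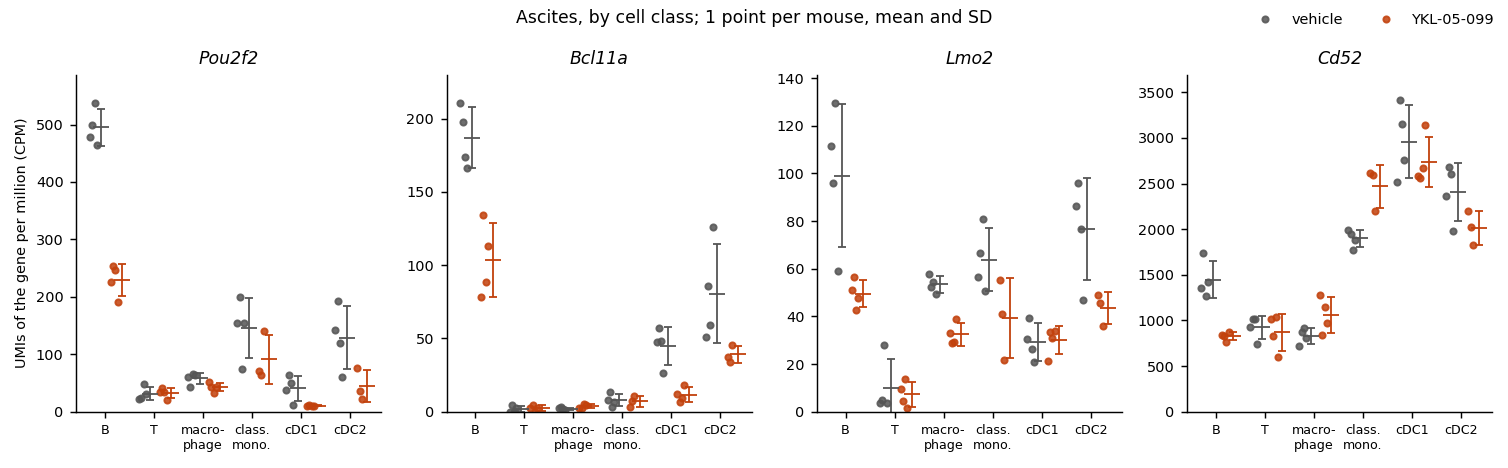
Level in CPM (linear axes from 0) of Pou2f2, Bcl11a, Lmo2 and Cd52 in ascites cell classes of each mouse, vehicle in grey and YKL-05-099 in orange, with mean and SD. CPM are on the scale of the fit of each class. Mean Pou2f2 and Bcl11a in vehicle mice were higher in B cells than in the other 5 classes drawn, Bcl11a was lower in treated cDC1, and Cd52 was higher in treated classical monocytes.

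Transcripts of B cells were also counted in cells named T cells, and the source of these UMIs was not tested. A Cd79a UMI was found in 3.43% and 4.23% of vehicle and treated ascites T cells, and in 36.4% and 41.9% of those of spleen and 38.3% and 34.6% of those of blood (median 4386 to 6915 UMIs per cell). In B cells the shares were 98.6% to 99.7% (median 3831 to 6991 UMIs). Thinned to 2000 UMIs per cell, Pou2f2 was detected in 50.7% of vehicle and 32.2% of treated ascites B cells, 38.6% and 29.9% in spleen and 54.5% and 38.4% in blood. T cells had 5.16% and 3.12%, 9.62% and 11.5%, and 5.65% and 10% in the same order. Marker lists are given as CPM of all UMIs of the B cells, without the scaling of the fits. The 8 macrophage markers summed to 2553 to 3999 CPM in vehicle and 2535 to 2878 in treated ascites B cells, and to 683 to 986 and 536 to 611 CPM in those of spleen. The migratory dendritic cell list of 6 genes was higher in treated B cells of all 3 tissues without overlap, at 281 to 348 against 431 to 546 CPM in ascites, 61.4 to 69.5 against 88.5 to 97.7 in spleen and 144 to 166 against 229 to 268 in blood. It holds Ccr7, which B cells also express. On the scale of the fits, mean Ccr7 levels were 319 and 443 CPM in ascites, 60.6 and 96.6 in spleen and 156 and 261 in blood. In ascites the 7 plasma cell markers summed to 539 to 2162 CPM in vehicle and 360 to 463 in treated mice, and the 10 fixed B cell markers to 7518 to 21505 and 5604 to 6529. The B cell list did not overlap in blood either, at 8878 to 9252 and 8092 to 8660 CPM. Other lists without overlap were those of cDC2 (45.2 to 63.5 against 20.8 to 42.8 CPM), plasmacytoid dendritic cells (6.82 to 21.2 against 0 to 3.75) and erythroid cells (43.5 to 50.1 against 50.5 to 88.9) in ascites. In spleen they were those of erythroid cells (252 to 511 against 162 to 208) and CD8 T cells (69.0 to 71.5 against 57.4 to 64.6). The 7 CD4 T cell markers were at most 41.6 CPM in ascites B cells and 87.4 CPM elsewhere. The part of these transcripts in the results was not tested beyond leaving out B cells with 2 or more UMIs of 10 genes of other classes. That kept 302 ascites, 353 spleen and 241 blood B cells, in which Pou2f2 in ascites and Fcer2a in ascites kept their calls. The other called members kept their direction but not their calls. These were Pou2f2 in spleen (-0.30) and blood (-0.17), Bcl11a (-0.84, -0.35 and -0.77) and Lmo2 (-0.50, -0.85 and -0.87) in ascites, spleen and blood, Cd52 in ascites (-0.68) and blood (-0.33), and Fcer2a (0.52) and Cr2 (0.30) in spleen.

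Lists of other B cell genes were chosen with earlier results of these data known, and are given as counts. Beside these lists, 3.41% of all genes rose and 4.36% fell in ascites, 2.44% and 2.18% in spleen, and 0.628% and 0.351% in blood. Of 31 tested genes of B cell receptor signalling, 1 rose and 7 fell in ascites, 2 rose and 1 fell in spleen, and 0 rose and 2 fell in blood. Counts such as 1 of 31 in ascites or spleen are close to the shares of all genes. Their median log2 fold changes were -0.23, 0.04 and -0.02. In ascites Ptpn6, the phosphatase that dampens receptor signals, changed by -1.28, the inhibitory coreceptor Cd22 by -1.08, Nfatc1 by -1.0 and the tetraspanin Cd37 by -0.45, while the kinase Syk rose by 0.51. Their edgeR adjusted p ran from 2.5e-06 to 0.0017, and each also passed in cluster 0 alone. Ptpn6 (-0.61) and Cd22 (-0.44) fell in blood as well (edgeR adjusted p = 9.2e-07 and 0.0065). Of 6 immunoglobulin constant genes, 2 fell in ascites, 1 in spleen and 0 in blood. They are lambda genes, Iglc1 and Iglc3 in ascites and Iglc2 in spleen. Reads of the near-identical Iglc2 and Iglc3 cannot be told apart with confidence.

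Surface and survival receptors showed 2 of 16 higher and 6 lower in ascites, 2 and 2 in spleen and 1 and 1 in blood. Tnfrsf13c, the BAFF receptor that B cells need to survive, fell by 0.76 in ascites, 0.71 in spleen and 0.43 in blood on the log2 scale (edgeR adjusted p = 0.00044, 2.9e-06 and 0.020). Ccr7, the receptor that guides cells to lymph nodes, rose by 0.49, 0.68 and 0.72 (edgeR adjusted p = 0.0037, 0.00019 and 2.9e-09), but did not pass in ascites cluster 0 alone (0.23). Ms4a1 (-0.97), which encodes CD20, and the BAFF and APRIL receptor Tnfrsf13b (-1.45) fell in ascites and passed in cluster 0 too. Besides the members and Tnfrsf13c, the genes that fell in all 3 tissues were Emp3, Cd180 and Sh3bp5, named after their values were seen.

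Of 24 other B cell transcription factors, 5 rose and 6 fell in ascites, 1 and 4 in spleen and 1 and 2 in blood. Spib (-0.96), Irf8 (-0.68) and Ikzf1 (-0.73) fell in ascites, and Irf8 (-0.53) also in spleen (edgeR adjusted p from 9.7e-05 to 0.00065). Id3, an inhibitor of E proteins, fell by 1.23 in spleen and 1.02 in blood (edgeR adjusted p = 1.8e-09 and 4.4e-08), and Klf2 by 0.57 in spleen. Pou2af1, the coactivator that works with POU2F2, rose by 0.41 in blood (edgeR adjusted p = 0.020). Bach2 rose by 0.61 in ascites and fell by 0.48 in blood (edgeR adjusted p = 0.012 and 0.016). Foxp1 (0.39), Lef1 (1.39) and Runx1 (0.52) also rose in ascites, with edgeR adjusted p from 0.00044 to 0.022. In ascites cluster 0 alone Lef1 passed (1.13), but Foxp1 (0.23), Runx1 (0.33) and Bach2 (0.34) did not. Of 11 tested B-1 cell genes 4 fell in ascites, among them Bhlhe41 (-2.05) and Fcrl5 (-2.29). In spleen 1 of 12 fell, and in blood 1 of 11 rose and 1 fell. Of the tested marginal zone genes, 7 in ascites, 12 in spleen and 7 in blood, 0 passed by edgeR. Of the plasma cell genes 1 of 5 fell in ascites and 0 of 7 and 0 of 6 passed in spleen and blood, and of the transitional genes 1 of 4, 1 of 5 and 1 of 5 fell.

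Across the 20 mouse-by-tissue sums, genes whose log2 CPM followed a member most closely were described by Pearson's r among 3619 genes, without a p, since the points share libraries and tissues. Nearest to Pou2f2 were Sh3bp5 (0.91), Camk2d (0.90) and Ciita (0.88). Bcl11a was followed most by Cd22 (0.88), Prr5 (0.85) and Lat2 (0.84), and Lmo2 by Bcl11a itself (0.83), Nrm (0.83) and H2-Aa (0.83). For Fcer2a these were Kmo (0.92), Samhd1 (0.89) and Klf3 (0.89), and for Ebf1 Bcl10, Rab2a and Ighd (0.82 each). Cd79a was followed by Gm31243 (0.96), H2-T23 (0.94) and Oaz1 (0.94), and Cd79b by S100a9 (0.97), Gimap1 (0.97) and Ptprcap (0.96). Those of Cr2 were Ran, Rps2 and Rpl27a (0.91 each), and those of Cd52 were Sumo2, Iglc3 and Fau (0.96 each). Nearest to Pax5 were Plekho1 (0.95), Susd6 (0.95) and Ep300 (0.94).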

How the data were processed

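The deposited files are raw UMI counts per gene and cell from 10x 3' libraries, with the hashtag counts in the same matrices; Cell Ranger 6.1.1 and mm10 are named in the submitters' processing notes. Barcodes needed at least 200 genes, 500 UMIs and a mitochondrial share of at most 10%. Hashtags were assigned with HTODemux (Seurat 5.3.0, positive quantile 0.99), which also removed hashtag doublets. Cells were clustered without the 10 members (scanpy 1.11.5, leidenalg 0.10.2; 2000 variable genes, 30 components, 20 neighbours, resolution 1). Counts were summed per mouse, tissue and class or gate, with at least 20 cells a mouse and 2 mice an arm, and tested with edgeR 4.0.16 in R 4.3.3 (quasi-likelihood F test, TMM scaling, filterByExpr, Benjamini-Hochberg over all genes, 0.05). Gates took a Cd93 UMI first, then Bhlhe41, then Fcer2a. DESeq2 1.42.0, other filters and hashtag rules, and left-out mice were alternatives. Members, lists and tests were chosen with earlier results of these data known. The text names the members, up to 4 genes per list, tissue and direction with the smallest p past the threshold, and the 3 genes most like each member. The scripts were tested on simulated data. Sex, age and dose were not used, as the sources used here do not give them.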

Additional observations from a re-analysis of the deposited data

Results flagged for a closer look

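Cd79a in treated ascites B cells had 1 mouse apart from the other 3: treated mouse 2 had 1803 CPM, and the others 1595, 1622 and 1621. Of the groups of 4 mice, 48 were looked at in this way, and chance sets a mouse apart in about 1 of 20 such groups.

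The treatment effect differed between tissues for 3 members, tested as interaction terms with edgeR and adjusted over all genes. For Cd52 the difference of the log2 fold changes was -0.87 for ascites minus spleen, -0.59 for ascites minus blood and -0.26 for blood minus spleen. For Pou2f2 it was -0.71 for ascites minus spleen and -0.82 for ascites minus blood. For Fcer2a it was 1.01 for ascites minus blood and -0.59 for blood minus spleen. Ascites was sequenced in a library of its own, so library and tissue cannot be told apart in the differences that involve it, while spleen and blood shared 1 library.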

How the results depend on the processing

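Of the member and gate values, 677 kept direction and side of the threshold under an alternative, 71 kept the direction but lost the call, 4 gained one and 37 changed sign; the changes of sign listed here are all of members that did not pass the test in that tissue or gate. The cause of each move was not tested. The number of genes called in ascites, spleen and blood B cells was 435, 369 and 67. It was 63, 76 and 15 without cells carrying markers of another class, where treated ascites mouse 2 had too few cells to enter. With DESeq2 it was 282, 199 and 37. With at most 5% mitochondrial UMIs it was 27 in ascites and 8 in blood. In that ascites fit treated mice 1 and 2 were missing, since they had 18 and 11 cells left, under the minimum of 20. With a transcript gate for B cells it was 22 in spleen and 20 in blood. Too few cells were left to fit the 5% limit in spleen and the transcript gate in ascites. Single clusters, added after the data were seen, gave 26, 244 and 87 in spleen clusters 0, 1 and 3, and 34 and 7 in blood clusters 0 and 3.

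Leaving out 1 mouse at a time gave 284 to 474 genes in ascites (fewest without treated mouse 4), 187 to 325 in spleen (fewest without vehicle mouse 2) and 41 to 66 in blood (fewest without treated mouse 2). In the Fcer2a gate it gave 29 to 70 in ascites, 49 to 196 in spleen and 18 to 34 in blood, against 61, 131 and 28 with all mice. In cells with no gate it gave 164 to 277 in spleen and 1 to 25 in blood, against 268 and 11. Assigning hashtags by their fraction of hashtag UMIs gave 48 in the Fcer2a gate of blood.

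With the mouse number as a replicate block, 39 genes were called in blood; same-numbered mice of the arms had deviations correlated at -0.03 to 0.04, so the numbers are not taken as pairs. Under the block Cd79b in ascites was 0.0060, Pax5 in spleen -0.0048 and Fcer2a in blood -0.024, as log2 fold changes.

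Other changes of sign were, without cells of other markers, Ebf1 in ascites (0.065) and blood (-0.055), Cd52 in spleen (-0.15), and Cd79b (0.016) and Fcer2a (-0.15) in blood. The transcript gate gave Cd79a 0.18 and Ebf1 0.30 in spleen, and Fcer2a -0.063 and Ebf1 -0.0081 in blood. The hashtag fraction gave Cr2 0.032, Fcer2a -0.0075 and Pax5 0.0073 in blood, and in the Fcer2a gate Cd52 0.014 in spleen and Cr2 0.21 in blood. Cd79b was 0.050 in ascites without Bhlhe41 and Cd93 cells and 0.040 in blood at 5% mitochondrial UMIs, and Cd79a was 0.019 in spleen with no filter on low counts. Cluster 0 gave Cd79b 0.14 in ascites, Cd52 -0.10 in spleen and Fcer2a -0.041 in blood, cluster 1 Cd79a 0.0034 in spleen, and cluster 3 Cd79b -0.0081, Cd52 -0.073 and Ebf1 0.088 in spleen and Cd79b 0.023 in blood. Without 1 mouse, Cd79b ran from -0.14 to 0.21 in ascites and -0.073 to 0.015 in blood, Cd79a from -0.039 to 0.013 and Cd52 from -0.0060 to 0.065 in spleen, and Cd52 in the Fcer2a gate of spleen from -0.079 to 0.034.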
